A study of Mus musculus with 6 samples.

Results

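The major urinary proteins are small carrier proteins of the mouse, encoded by a cluster of near-identical Mup genes on chromosome 4. Of the 22 Mup genes listed in the deposited count tables, 5 are described here, Mup7, Mup2, Mup8, Mup3 and Mup12, out of 27179 genes in all. They were chosen by their raw counts, present in the mutant libraries and absent from the wild-type libraries, so that contrast is given for them as a description and without a test. They were found by Entrez number, since older names of Mup genes (a former Mup7 is now Mup1) were used for more than 1 gene.

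The libraries were made from erythrocytes of individual BALB/c mice. The mutants (Nxf1+/C587R, n = 3) were males with 1 copy of a missense allele of the nuclear RNA export factor Nxf1, and the wild-type controls (n = 3) were their littermates. The labels gave no treatment, age or sex of the controls. Red cells from cardiac blood were spun through Ficoll, washed and examined by flow cytometry for platelets (CD41+), lymphocytes (CD45+) and nucleated cells (DRAQ5+), and the polyadenylated RNA was sequenced. Batches 1, 2 and 3 each held 1 mutant and 1 wild-type library, and all 6 libraries carried the same flow cell and lane in their labels.

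As background, major urinary proteins belong to the lipocalins, proteins that fold into a barrel around a small hydrophobic ligand. The liver makes most of them under the pulses of growth hormone typical of males. They pass from blood into urine, where they carry volatile pheromones and release them slowly, and some act as pheromones themselves. Mature red cells have no nucleus and are not known as a source of these secreted proteins.

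The near-identity of the copies decides how far their counts can be read one by one, so a stretch of coding sequence is shown first. It lies in exon 1 and was taken as the 60 bases with most differences among Mup7, Mup2, Mup8 and Mup12. Letters are the coding strand 5′ to 3′, from GENCODE transcripts (GRCm38), and capitals mark bases that differ from Mup7.
Mup7: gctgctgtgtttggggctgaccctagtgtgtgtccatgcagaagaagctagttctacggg
Mup2: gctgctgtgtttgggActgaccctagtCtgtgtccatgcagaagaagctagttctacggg
Mup8: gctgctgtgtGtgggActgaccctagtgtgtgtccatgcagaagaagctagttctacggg
Mup12: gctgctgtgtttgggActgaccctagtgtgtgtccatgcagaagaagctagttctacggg
Mup3: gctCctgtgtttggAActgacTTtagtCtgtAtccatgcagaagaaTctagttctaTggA

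These stretches are on the minus strand of chromosome 4, at chr4:60070227-60070286 for Mup7, chr4:60139713-60139772 for Mup2, chr4:60222396-60222455 for Mup8, chr4:60741142-60741201 for Mup12 and chr4:62087146-62087205 for Mup3. Against Mup7, 1 base differed in Mup12, 2 in Mup2, 2 in Mup8 and 10 in Mup3. Over the 540 coding bases before the stop codon, Mup7, Mup2, Mup8 and Mup12 varied at 9 positions, and any pair of them was 98.7% to 99.4% identical. Mup3, with 552 coding bases, was 82.1% to 82.6% identical to them, with 96 to 99 differences (gaps included). Its nearest relative was Mup21, at 94.7% identity.

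All 5 genes lie in 1 cluster of 2194 kb (GRCm38, chromosome 4, 59956804 to 62150841) that holds the 22 listed Mup genes. In RefSeq, Mup7 (Entrez gene 100041658) spans 60066469 to 60070475 and Mup2 (17841) spans 60135913 to 60139977. Mup8 (100041687) spans 60218620 to 60222565, Mup12 (100039054) 60737381 to 60741416 and Mup3 (17842) 62083476 to 62087317. All 5 are on the minus strand and have 7 exons in the GENCODE transcript used. Mup7, Mup2 and Mup8 are direct neighbours near one end of the cluster, Mup12 lies further in, and Mup3 stands near the other end, next to Mup21. The reference genome is that of C57BL/6J mice, while the libraries are from BALB/c, so reads of BALB/c copies were assigned to the C57BL/6J copies.

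Total counts ran from 14636739 to 15246552 in the mutants and from 14711457 to 15790336 in wild type, and globins took 88.9% to 89.3% of counts in the mutants and 88.1% to 88.9% in wild type. All 13 matched red cell markers had counts in every library. Platelet markers summed to 78 to 199 counts in the mutants against 171 to 322 in wild type, and white blood cell markers to 934 to 1626 in the mutants against 1506 to 1830 in wild type. Of the 2823 genes tested, 5.99% were called higher and 1.06% lower (edgeR, 169 and 30 genes), or 115 and 245 genes with total counts as library sizes. The median log2 fold change over them was −0.06, and −0.53 with total counts. Nxf1 had 9, 7 and 11 counts in the mutants against 15, 10 and 20 in wild type, which was not called (log2 fold change −0.21, SE 0.38, edgeR adjusted p = 0.850), and a gene's count does not show its alleles. Wild-type library 1 stood apart from the other wild-type libraries, with 90 counts of Ttr (transthyretin) and 17 of Epcam (an epithelial adhesion protein) against 0 in both others.

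Mup7 had the most counts of the 5 genes. It had 180, 351 and 226 counts in mutant libraries 1, 2 and 3, and 0, 0 and 0 in wild-type libraries 1, 2 and 3. The groups did not overlap, which the choice of the gene fixed, and mutant library 2 was the highest. As a share of total counts its level was 11.9, 23.0 and 15.4 CPM (counts scaled to one common library size) in the mutants, or 16.8 ± 5.70 CPM (SD, n = 3), against 0 CPM in each wild-type library.

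Mup2 had 126, 294 and 132 counts in the mutants against 0, 0 and 0 in wild type. The count of mutant library 2 was more than that of the other two mutant libraries together. Its level was 12.2 ± 6.14 CPM in the mutants (SD, n = 3) against 0 CPM in wild type. Mup8 had 131, 258 and 145 counts in the mutants against 0, 0 and 0 in wild type, which gave 11.8 ± 4.46 CPM in the mutants (SD, n = 3). Mup2 and Mup8 did not differ in level beyond their spread between mutant libraries, and both were below Mup7 in every mutant library.

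Mup3, the most divergent of the 5, had 76, 96 and 71 counts in the mutants against 0, 0 and 0 in wild type. Its level of 5.38 ± 0.793 CPM (SD, n = 3) varied less between the mutant libraries than those of Mup7, Mup2 and Mup8. Mup12 had 52, 78 and 52 counts in the mutants against 0, 0 and 0 in wild type, a level of 4.03 ± 0.941 CPM (SD, n = 3). Mup3 was above Mup12 in each mutant library, but their means differed by little more than their spread.

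**Figure D1:**
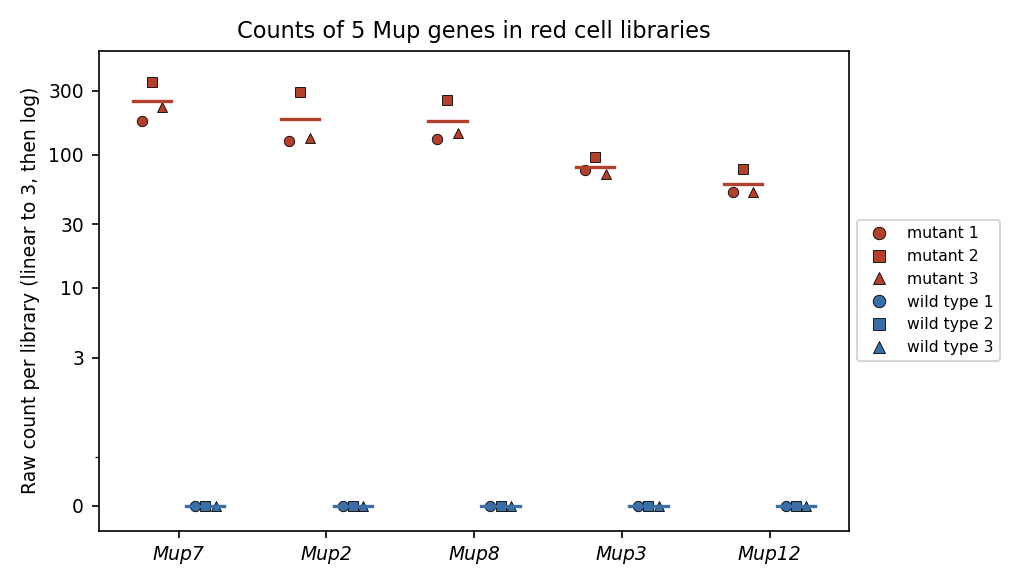
Raw counts of 5 Mup genes in each library, on an axis that is linear to 3 counts and logarithmic above. Symbols are single libraries (circle, square and triangle for replicates 1, 2 and 3), lines are group means, mutants are left of wild type, and every mutant value lies between 52 and 351 while every wild-type value is 0.

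Summed over the 5 genes, the mutants had 565, 1077 and 626 counts, and wild type had 0, 0 and 0. A count of 0 in a wild-type library allows up to 3 counts, or 0.190 to 0.204 CPM. The sum was 37.2, 70.6 and 42.8 CPM of total counts in the mutants, a mean of 50.2 ± 17.9 CPM (SD, n = 3). With TMM scaling factors the sum was 51.7, 90.6 and 40.4 CPM, a mean of 60.9 ± 26.3 CPM (SD, n = 3). Mutant library 2 was the highest on both scales, while the order of libraries 1 and 3 depended on the scaling.

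With a floor of 3 counts over the wild-type group and total counts as library sizes, the mutant level was at least 258-fold higher for Mup7, at least 188-fold for Mup2, at least 182-fold for Mup8, at least 82.7-fold for Mup3 and at least 61.9-fold for Mup12. With TMM-scaled library sizes the bounds for Mup3 and Mup12 were 116-fold and 86.9-fold. Without wild-type library 1 the total-count bounds were lower by construction, since a smaller total lies behind the floor, at 171-fold, 125-fold, 121-fold, 54.8-fold and 41.1-fold in the same gene order. In all, 273 genes had counts in all 3 mutant libraries and in no wild-type library, which is 1.67% of the 16396 genes with any count. Among these 273, Mup7 had the most counts, Mup2 ranked 3, Mup8 4, Mup3 10 and Mup12 15. All 5 passed the filter on low counts, through the mutant libraries alone.

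Divided by gene length, the order of the summed counts stayed the same. Over the 3 mutant libraries Mup7 had 733 counts per kb, Mup2 544, Mup8 542, Mup3 268 and Mup12 206. As in the raw counts, Mup2 was above Mup8 in library 2 and below it in libraries 1 and 3. Mup2 had 124, 290 and 130 counts per kb and Mup8 had 133, 262 and 147 in mutant libraries 1, 2 and 3.

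The mixture of the 5 transcripts was similar in the 3 mutant libraries, which came from 3 mice and 3 batches. Mup7 made up 31.9%, 32.6% and 36.1% of the 5 genes' counts in mutant libraries 1, 2 and 3, and Mup8 23.2%, 24.0% and 23.2%. The 95% Wilson intervals of these shares overlapped between all 3 libraries for Mup7, Mup8 and Mup12. Mup12 had the smallest share, 9.20%, 7.24% and 8.31%.

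Mup3 and Mup2 shifted more. Mup3 took 13.5% (95% Wilson interval 10.9 to 16.5) of these counts in mutant library 1, 8.91% (7.35 to 10.8) in library 2 and 11.3% (9.09 to 14.1) in library 3. The intervals of libraries 1 and 2 just failed to overlap, and the smallest share was in the library with most Mup counts. Mup2 had its largest share there, 27.3% (24.7 to 30.0), against 22.3% (19.1 to 25.9) in library 1 and 21.1% (18.1 to 24.4) in library 3. From library 1 to library 2, the level of Mup2 differed by a factor of 2.32 and that of Mup3 by a factor of 1.26 in CPM of total counts. The factor was 1.94 for Mup7, 1.96 for Mup8 and 1.49 for Mup12, and 2.31 for Alb (serum albumin), which is described below. The share of Mup2 cannot be told apart from that of its near copies, since reads can be shared. Intervals and floors cover counting error only.

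**Figure D2:**
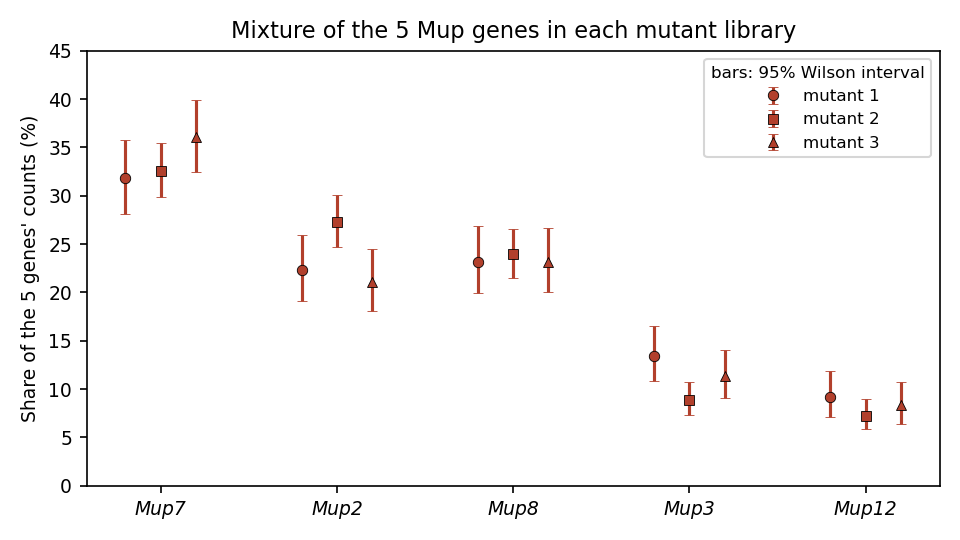
Share of each Mup gene in the summed counts of the 5 genes, in percent, in each mutant library. Symbols are mutant libraries 1, 2 and 3 and bars are 95% Wilson intervals; Mup8 stays between 23.2% and 24.0%, while Mup3 runs from 8.91% to 13.5%.

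The rest of the family was counted in the same libraries. The other 17 Mup genes had 224, 483 and 277 counts in the mutants against 0, 0 and 1 in wild type, so that the 5 genes took 71.6%, 69.0% and 69.3% of all Mup counts in mutant libraries 1, 2 and 3. Of these 17 genes, 16 had a count in a mutant library and 13 had counts in all 3 mutant libraries and none in wild type. By these counts, in which near-identical copies can share reads, the 5 genes are not the only Mup genes with that pattern. The single wild-type count of the family was of Mup13, in library 3, and Mup13 had 1, 2 and 0 counts in the mutants.

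Mup9 had 45, 101 and 65 counts in the mutants against 0, 0 and 0 in wild type, and Mup6 had 36, 74 and 48 against 0, 0 and 0. Their summed counts of 211 and 158 stand on either side of the 182 of Mup12. With total counts they were at least 71.8-fold and 53.8-fold higher. By length they had 293 counts per kb each, slightly above Mup3. Mup6 is the family member on the plus strand.

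Mup17 had 19, 64 and 34 counts, Mup10 23, 61 and 27, Mup11 24, 45 and 18, Mup16 17, 38 and 27, and Mup15 15, 21 and 19 in the mutants, all with 0 in each wild-type library. These 5 and Mup6 and Mup9 were the 7 other Mup genes that passed the filter on low counts, and all 7 were called higher (edgeR adjusted p 3.46e-07 to 0.000552), against 5.99% of the 2823 genes tested. With the other scalings, with DESeq2 and with batch as a term 7 were called as well, while Mup11 was not called without batch 1 (edgeR adjusted p = 0.0842). They passed the filter through the mutant libraries only and so could only come out higher. That count is a description, and no list here is set against chance. The 7 calls need not be independent, since near-identical copies can share reads.

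The remaining Mup genes had fewer counts and did not pass the filter. Mup1 had 10, 16 and 9 counts in the mutants, Mup5 8, 18 and 5, Mup18 9, 9 and 10, Mup22 6, 12 and 5, and Mup21 6, 9 and 8, all with 0 in each wild-type library. Mup14 had 3, 6 and 2 counts, Mup19 0, 2 and 0, and Mup20 2, 5 and 0 in the mutants, again with 0 in wild type. Mup20 encodes darcin, the male urinary pheromone that attracts females. Mup4, known from the nasal mucosa, had 0 counts in every library. The 1 Mup pseudogene listed, Mup-ps12, also had 0 throughout.

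**Figure D3:**
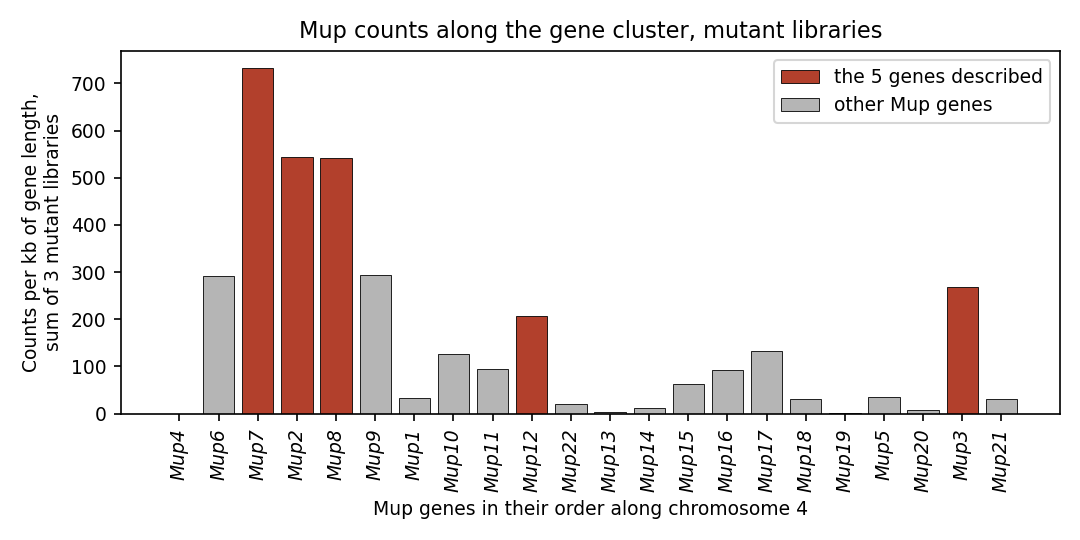
Counts per kb of gene length, summed over the 3 mutant libraries, for the 22 Mup genes in their order along chromosome 4. Bars in red are the 5 genes described and grey bars the other 17; Mup7, Mup2 and Mup8 stand highest as neighbours, at 542 to 733 counts per kb, and Mup3 reaches 268 near the far end.

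The genes that flank the cluster did not share this pattern. Slc46a2, before the first Mup gene, had 0 counts in all 6 libraries. Zfp37, after the last one, had 0, 0 and 0 counts in the mutants against 2, 0 and 0 in wild type.

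How much of each transcript is its own bears on these counts. A window of 100 bases was counted as a gene's own if it occurred, on either strand, in no GENCODE transcript of another gene. Of the windows of Mup2, 2.66% were its own, of Mup7 12.9%, of Mup8 22.2% and of Mup12 22.5%. For Mup3 97.1% were its own. The other Mup genes ran from 0% to 100%, with a median of 16.5%. Among those called higher, own windows were 2.66% for Mup15, 14.6% for Mup10, 14.9% for Mup9 and 16.5% for Mup11. They were 19.9% for Mup16, 40.6% for Mup17 and 100% for Mup6.

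A window of the 4 similar genes occurred in up to 15 other genes, but a window of Mup3 in at most 1. With windows of 50 bases, 0% of those of Mup2 and 84.4% of those of Mup3 were their own. Across the 22 Mup genes the number of own 100-base windows and the summed mutant counts had a Spearman correlation of 0.0760, given as a description over genes that share sequence and libraries. Mup4 and Mup6, with 100% own windows each, had 0 and 158 counts over the mutants. No source used here gave the read length or the treatment of reads that fit several genes. The part of read sharing in the split between Mup7, Mup2, Mup8 and Mup12, and in the counts of the other Mup genes, was not tested.

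**Figure D4:**
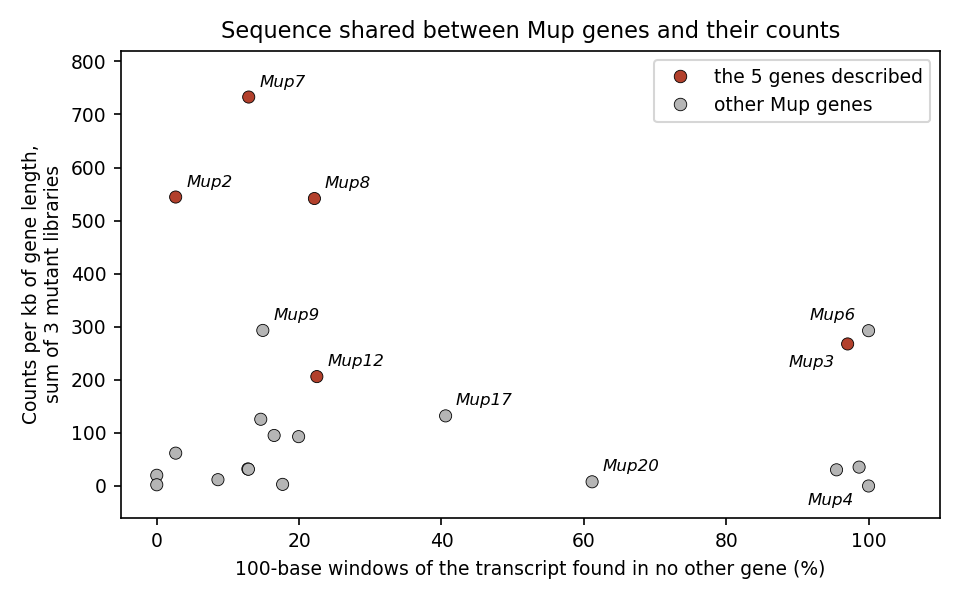
Percentage of 100-base windows of each Mup transcript that occur in no transcript of another gene, against counts per kb of gene length summed over the 3 mutant libraries. Each point is 1 of the 22 Mup genes, red for the 5 described; Mup2 has 544 counts per kb with 2.66% own windows, and Mup3 has 268 with 97.1%.

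Since these genes were counted in the same libraries, their upstream sequence was compared as well. RefSeq promoter windows (GRCm38.p6, 250 bases before to 50 after the annotated start) were given for 14 Mup genes, among them Mup7, Mup2 and Mup3. The letters TATATAA, a form of the TATA box searched on both strands after the windows had been read, occurred in 13 of these 14 windows and in 3.24% of all 32851 windows. The window of Mup7 was the one without them. In the other windows the first match began from −31 (Mup9) to 12 (Mup14) bases from the annotated start. The annotated starts are thus not placed alike, and sequence outside the window of Mup7 was not searched. The letters TTCNNNGAA, the core bound by STAT factors, occurred in 0 of the 14 windows and in 8.30% of all. The stretch up to the match is shown for Mup2 and Mup3, 5′ to 3′ on the minus strand, with TATATAA in capitals.
Mup2: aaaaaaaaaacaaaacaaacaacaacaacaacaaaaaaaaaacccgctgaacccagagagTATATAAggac
Mup3: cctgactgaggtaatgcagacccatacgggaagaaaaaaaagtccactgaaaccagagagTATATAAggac

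These are chr4:60139873-60139943 for Mup2 and chr4:62087318-62087388 for Mup3, and the match begins 27 and 11 bases before the annotated start. The stretch of Mup2 falls inside the gene span given above, which includes a start further upstream. Over the 71 bases shown, 59.2% were identical. The bases next to the match were the same in both genes, while further upstream Mup2 has a run of A and C that Mup3 lacks.

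Transcripts of the cells that normally make these proteins were set beside them. Alb (serum albumin) had 490, 1136 and 800 counts in the mutants against 0, 1 and 0 in wild type, a ratio of 3473 (95% interval 623 to 137200; edgeR adjusted p = 1.20e-07). For every 100 Alb counts, the 5 Mup genes had 115 (exact binomial 95% interval 102 to 130), 94.8 (87.1 to 103) and 78.2 (70.4 to 87.0) counts in mutant libraries 1, 2 and 3, a mean of 96.1 ± 18.6 (SD, n = 3). The ratio does not depend on scaling. It was highest in library 1, which had the fewest Mup and the fewest Alb counts, and lowest in library 3. The intervals of libraries 1 and 3 did not overlap. Divided by gene length, the mean was 199 ± 38.9 per 100 of Alb.

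Most secreted proteins of hepatocytes were higher. Of 33 genes, 31 were tested, 29 were higher and 0 lower (edgeR, against 5.99% higher and 1.06% lower of all genes tested; 0 lower also at an unadjusted p and with DESeq2). The list summed to 2119, 4444 and 2703 counts in the mutants against 207, 89 and 123 in wild type, so mutant library 2 was again the highest. The median log2 fold change was 8.29, and 5.99 when the 20 tested genes without wild-type counts were set at their bound, beside −0.06 over all genes tested. As with the Mup genes, most passed the filter through the mutants.

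Examples of this list were Apoc1, an apolipoprotein, with 56, 100 and 66 counts in the mutants against 0, 0 and 0 in wild type, and Serpina1d, an antitrypsin, with 26, 35 and 35 against 0, 0 and 0. With TMM-scaled sizes they were at least 106-fold and 45.8-fold higher. Serpina1a, a close copy of it that can share reads, had 60, 74 and 41 counts against 0, 0 and 1, a ratio of 250 (95% interval 44.4 to 9951). The list was not silent in wild type. Most of its wild-type counts were of Hp (haptoglobin, which binds free hemoglobin), with 83, 112 and 116 counts in the mutants against 84, 61 and 82 in wild type. Hp was called (log2 fold change 0.98, SE 0.21, edgeR adjusted p = 0.00388), but not with total counts (0.190) or without batch 2 (0.120). The complement gene C3 had 61, 133 and 88 counts against 22, 8 and 27 in wild type, and Ttr 85, 273 and 133 against 90, 0 and 0. Hp, C3 and Ttr were named after their values had been seen. Trf (transferrin) had 189, 427 and 242 counts against 2, 18 and 12 in wild type (log2 fold change 5.26, SE 0.68, edgeR adjusted p = 0.00752). Apoa2, an apolipoprotein with 124, 331 and 124 counts against 0, 0 and 0, missed the threshold (edgeR adjusted p = 0.0667) and passed with DESeq2 (2.30e-11).

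Most of the hepatocyte enzymes tested were higher as well. Of 30 genes, 12 were tested, 9 were higher and 0 lower (edgeR), against 5.99% higher and 1.06% lower of all genes tested. At an unadjusted p and with DESeq2, 0 were lower as well. The list summed to 425, 1123 and 484 counts in the mutants against 75, 55 and 68 in wild type. Of the 12 tested, 7 had no wild-type count, passed the filter through the mutants only and so could only come out higher. The median log2 fold change was 7.68, or 5.54 with these genes at their bound, beside −0.06 over all genes tested. Adh1 (an alcohol dehydrogenase) had 20, 48 and 28 counts in the mutants against 2, 0 and 0 in wild type. Uox (urate oxidase) had 15, 29 and 12 counts and Bhmt (betaine-homocysteine methyltransferase) 21, 33 and 13, both with 0 in each wild-type library. The number called was 15, 16 and 14 without wild-type library 1, 2 and 3, where more genes were tested.

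Genes known to be expressed more in male than in female liver, as most Mup genes are, were present too. Of the 20 on that list, 18 had counts in the mutants, with sums of 159, 265 and 127 in the mutants against 15, 9 and 10 in wild type. The 4 tested were higher and 0 were lower (edgeR), against 5.99% higher and 1.06% lower of all genes tested. At an unadjusted p and with DESeq2, 0 were lower as well. The median log2 fold change was 7.19, beside −0.06 over all genes tested. Of these 4, 3 had no wild-type count and so could only come out higher, and with these at their bound the median was 4.39. Cyp2d9, a male-specific cytochrome P450, had 23, 51 and 26 counts in the mutants against 0, 0 and 0 in wild type. Cyp2f2, another cytochrome P450, had 19, 12 and 13, and Ugt2b1, a glucuronosyltransferase, 13, 19 and 12, both with 0 in each wild-type library. Selenbp2, a selenium-binding protein, had 28, 51 and 24 counts against 3, 1 and 3 (log2 fold change 4.36, SE 0.49, edgeR adjusted p = 4.26e-06). Without wild-type library 1 or 2 the number called was 7.

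Genes known to be expressed more in female liver were nearly absent. Of 20 genes, 5 had a count in the mutants, with sums of 1, 6 and 3 in the mutants against 6, 0 and 1 in wild type, and 0 passed the filter. Cyp2b10, a cytochrome P450, had 1, 2 and 2 counts against 1, 0 and 0. Prom1 had 0, 0 and 0 against 4, 0 and 1.

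The growth hormone axis and other regulators of Mup genes mostly did not pass the filter, and most of those tested were not called. The list summed to 131, 160 and 200 counts in the mutants against 307, 117 and 178 in wild type, with wild-type library 1 the highest. Of 23 genes, 7 were tested, 1 was higher and 0 lower (edgeR, against 5.99% higher and 1.06% lower of all genes tested; 0 lower also at an unadjusted p and with DESeq2). The median log2 fold change was 0.21, beside −0.06 over all genes tested. The gene called was Igf1, the growth factor that the liver releases under growth hormone, with 10, 25 and 10 counts in the mutants against 0, 0 and 1 in wild type, a ratio of 64.4 (95% interval 11.0 to 2600). Without mutant library 3, without any 1 wild-type library or without batch 3, 2 genes were called. With globins removed before scaling, Igf1 did not pass the filter and 0 were called.

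Among lipocalins outside the Mup family, 3 of 22 were tested and 1 was higher, against 5.99% of all genes tested. The median log2 fold change of these 3 was 4.10, beside −0.06 over all genes. Ambp, the precursor of a plasma lipocalin of the liver, had 27, 44 and 36 counts in the mutants against 2, 0 and 0 in wild type, a ratio of 76.6 (95% interval 20.7 to 641). Rbp4, the plasma retinol carrier, had 34, 88 and 32 counts against 13, 0 and 0 and did not pass (edgeR adjusted p = 0.148), but was called with batch as a term (0.0425) and without wild-type library 1 (0.00784). Lcn2, the lipocalin of neutrophil granules, had 12, 15 and 23 counts against 10, 22 and 17 and was not called (edgeR adjusted p = 0.517). Rbp4 and Lcn2 were named after their values had been seen.

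Markers of other liver cells had few counts. Of 20 genes on that list 16 had counts in the mutants, with sums of 42, 64 and 62 in the mutants against 50, 23 and 34 in wild type. The sums hide opposite patterns. In wild type most counts came from 3 genes, Reln, Epcam (0 in each mutant library against 17, 0 and 0 in wild type) and Krt7 (0 in each mutant library against 13, 0 and 1 in wild type), while 8 genes had counts in the mutants only. The 1 gene tested, Reln (reelin), had 5, 1 and 9 counts against 13, 23 and 15 and did not pass (log2 fold change −1.26, SE 0.51, edgeR adjusted p = 0.177). Of this list 0 were higher (edgeR; 0 at an unadjusted p and 0 with DESeq2), while 1 was without wild-type library 3. Dcn (decorin, of stellate cells and fibroblasts) had 9, 14 and 11 counts in the mutants against 0, 0 and 8 in wild type. Of liver sinusoidal endothelium, Dnase1l3 had 6, 15 and 9 counts in the mutants, Clec4g 6, 8 and 6, and Stab2 1, 10 and 4, all with 0 in each wild-type library. Of liver macrophages, Vsig4 had 1, 2 and 4 and Clec4f 0, 3 and 4, both with 0 in each wild-type library, and Cd5l had 4, 2 and 5 counts against 0, 0 and 1. These 6 genes, Epcam and Krt7 were named after their values had been seen.

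Salivary, lacrimal and mammary glands, which also make some Mup proteins, left almost no counts. Of 16 markers, 14 had 0 counts in every library, and the list summed to 0, 3 and 4 counts in the mutants against 5, 2 and 0 in wild type. Amy1, salivary amylase, had 0, 3 and 4 counts against 2, 2 and 0, and Klk1, a kallikrein, had 0, 0 and 0 against 3, 0 and 0. In blood, fewer cells of a type and less RNA per cell or outside cells cannot be told apart, and the part of hepatocyte transcripts in the Mup counts was not tested.

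**Figure D5:**
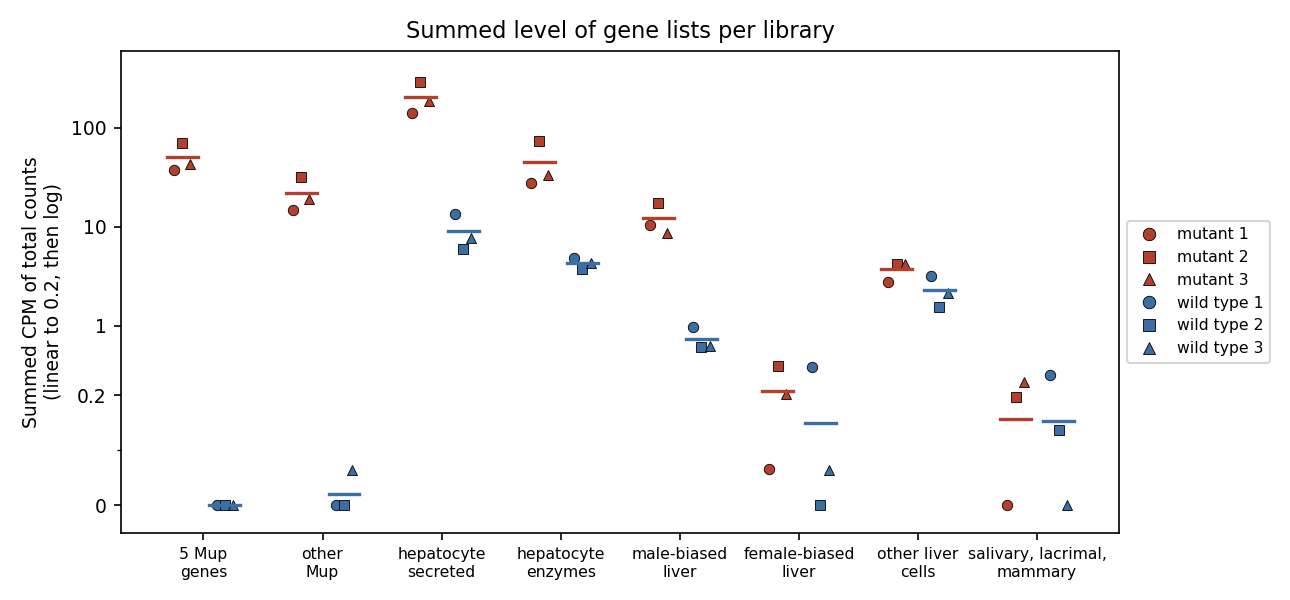
Summed level of each gene list per library in CPM of total counts, on an axis that is linear to 0.2 and logarithmic above. Symbols are libraries (circle, square and triangle for replicates 1, 2 and 3), lines are group means and mutants are left of wild type; the 5 Mup genes reach 37.2 to 70.6 CPM in the mutants and 0 in wild type, and hepatocyte secreted proteins 140 to 292 CPM in the mutants.

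Genes with the most similar split over the mutant libraries were taken from 80 genes outside the Mup family that had no wild-type counts and at least 30 over the mutants. In CPM of total counts, the 5 Mup genes together had 24.7%, 46.9% and 28.4% of their level in mutant libraries 1, 2 and 3. The nearest were Cyp2a12 and Cyp1a2 (cytochromes P450), Serpina1c (an antitrypsin), Apoa1 (the main apolipoprotein of HDL), Serpina3k (a serine protease inhibitor) and F2 (prothrombin). Their distances, the sum of the absolute differences of the 3 shares, were 0.0266 to 0.0449, against a median of 0.158 and a largest value of 0.546 over the 80 genes. Apoa1 had 135, 229 and 141 counts in the mutants and Serpina1c 92, 174 and 109, with 0 in each wild-type library. Over 3 libraries such a likeness is a description only.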

How the data were processed

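The deposited values are raw gene counts, made by the authors with CASAVA 1.8.2, Subread and featureCounts on mm10, per the submitters' processing notes. No source used here gave the Subread and featureCounts versions, annotation, strand setting or multi-mapping rule. Symbols and positions came from RefSeq (25275 of 27179 genes matched) and transcripts from GENCODE, both on GRCm38, the assembly called mm10.

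Genes were tested with edgeR 4.0.16 in R 4.3.3 (robust quasi-likelihood F test, TMM, filterByExpr by group, a model of genotype alone, Benjamini-Hochberg over all 2823 genes tested). Calls needed an adjusted p under 0.05. The SE of a log2 fold change was that change over the square root of F. Where wild type had 0 counts, folds used a floor of 3 counts over the group. Such bounds leave out the error of the mutant counts and the spread between mice. Where wild type had 1 to 3 counts, ratios used TMM-scaled library sizes and carry exact binomial 95% intervals. Each library was 1 mouse. The tests were run on simulated counts with increases only and the same dispersion for all genes. There edgeR recovered 20% of 2-fold and 100% of 4-fold increases, and DESeq2 22% and 92%. A gene that was not called may therefore still differ.

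The Mup genes and 12 gene lists (239 of 244 entries matched) were chosen with earlier results of these data known. Named genes were the 5 Mup genes, all other Mup genes, up to 4 called genes per list and direction by p (or the 2 with most counts), Alb and the 3 hepatocyte genes with most counts, the flanking genes, Nxf1 and the 6 genes of most similar split. Further genes, marked in the text, were named after their values had been seen. Predicted models were left out. One gene that the rule took is not reported here. Of the platelet and white blood cell lists the report gives summed counts, and of the red cell list whether its matched markers had counts.

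The batch label pairs the libraries, and deviations of same-batch libraries from their group means correlated at −0.116, −0.0855 and −0.0439. Alternatives were batch as a term, RLE scaling, total counts, removal of globins before scaling, no filter, DESeq2 1.42.0, and leaving out each library or batch.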

Additional observations from a re-analysis of the deposited data

How the results depend on the processing

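The Mup counts themselves involve no test. Their mean sum in the mutants was 60.9 CPM, 62.5 with RLE and 50.2 with total counts. It was 546 when globins were removed first, since the library totals are then smaller, and 46.1 to 71.1 without 1 mutant library. The ratio to 100 Alb counts was 96.1, 86.5 to 105 without 1 mutant library, and 199 by length. The Mup7 share was 33.5%, 32.1% by length, and 32.2% to 34.4% without 1 mutant library.

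Of 31 named genes called, 27 kept their call under every alternative that could be run for them. Most of the 31 had no wild-type count and passed the filter through the mutant libraries only. Of the 63 tested genes without a wild-type count 61 were called, so kept calls among them are a description only. The exceptions were Mup11 (edgeR adjusted p = 0.0842 without batch 1) and Hp (0.190 with total counts and 0.120 without batch 2). Hbb-bs (a beta globin) and Gzma (granzyme A of lymphocytes) were exceptions too. With no filter, 382 genes were higher and 82 lower, with 13 other Mup genes, 3 lipocalins, 2 growth hormone genes, 11 male-biased genes, 22 hepatocyte enzymes and 4 genes of other liver cells higher. With batch as a replicate block, 194 genes were higher and 60 lower, and 2 lipocalins were higher; all 7 other Mup genes were called. Main counts were 169 and 30. Genes lower numbered 11 with DESeq2, 19 with RLE and 245 with total counts, where the median log2 of all genes was −0.53 in place of −0.06. With globins removed 0 growth hormone genes were higher. With no filter more genes were tested; the other causes were not tested.

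Without 1 library or batch, genes higher ranged from 129 to 244, genes lower from 3 (without batch 3) to 77, other Mup genes from 6 to 8, lipocalins from 1 to 2, growth hormone genes from 1 to 2, male-biased genes from 4 to 7, hepatocyte secreted proteins from 29 to 32, hepatocyte enzymes from 8 to 16 and other liver cells from 0 to 1. In the same fits log2 fold changes that were not called spanned both signs for Nxf1 (−0.35 to 0.0791) and for the platelet genes Itga2b (−0.43 to 0.29) and Ppbp (−0.86 to 0.57, and 0.0101 with DESeq2). A count of 0 in a wild-type library allows a level of up to 0.190 to 0.204 CPM.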
